A study of Mus musculus with 25 samples.

Results

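The genes of the cytosolic ribosome were followed in RAW 264.7 cells, a transformed mouse macrophage line, exposed to hypochlorous acid (HOCl). Members were taken by symbol: Rpl or Rps followed by a number, together with Rplp0, Rplp1, Rplp2 and Rpsa, without the Rps6k kinases, without pseudogenes and without probe sets that carry several symbols. Each gene was read from the probe set with the highest mean over the 25 arrays. The rule gave 50 genes of the 18193 with a probe set of a single symbol, and these genes had 106 such probe sets. Of the 50, 20 encode proteins of the large subunit, 2 encode stalk proteins (Rplp0 and Rplp2), 21 encode proteins of the small subunit and 6 are paralogs of ribosomal proteins. Rps19bp1, which encodes a protein that binds the small subunit protein Rps19, met the symbol rule but is not itself a ribosomal protein, so the label fits 49 of the 50. Of 77 listed cytosolic ribosomal protein genes, 43 were members, and the rule left out 34, Rplp1 among them.

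The cytosolic ribosome has a small subunit, which reads the messenger RNA, and a large subunit, which joins amino acids and carries the stalk that recruits translation factors. Cells make the ribosomal proteins in matched amounts, in large part through translation: their messenger RNAs begin with a 5′ terminal oligopyrimidine (TOP) tract, a C followed by a run of C and T, through which mTOR and Larp1 set how well they are translated. That control leaves total RNA largely untouched, and an array of total RNA does not read it. Hypochlorous acid is the oxidant that neutrophils and monocytes make from chloride with myeloperoxidase.

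The cells were of the same line throughout, without genetic change, and differed by the HOCl added to their medium: either none (0 mM) or 0.14, 0.35 and 0.7 mM and then 1.4, 2.1, 2.8 and 3.5 mM, each for 6 h. Total RNA went to 1 Affymetrix mouse expression array per sample, with 4 samples without HOCl and 3 for every dose, whereas the series design text gives 3 replicates per dose. The design text calls the replicates biological without saying whether they were grown on separate days, so p-values measure the spread between these arrays. In RNA of whole cultures, fewer cells and less RNA per cell cannot be told apart. Values are log2 signals per probe set, with the median of each array at 0, so a difference is relative to the middle of the array and not to the number of cells.

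Arrays of the same dose correlated at 0.953 to 0.997 over all probe sets. All 11 measured macrophage markers had a mean signal above 1, and their mean on an array lay between 5.81 and 6.24. Of the marker lists for T cells, B cells, neutrophils, fibroblasts, epithelium and endothelium, the array means lay between -0.856 and 0.206, and 1 of 4 T cell and 1 of 4 epithelial markers had a mean above 1. Replicate 1 of 0 mM stood apart. Its median member lay 0.289 below that gene's mean over the 25 arrays, 46 of 50 members were below their own mean, and 42 of 50 were lowest there among the 4 arrays of 0 mM, against 35.8% of all probe sets. The 150 other probe sets that were above the 99th percentile on every array had a median of -0.265 on it, so bright probe sets in general were low there. Its Gapdh 3′ minus 5′ control difference was 0.355, against -0.113 to -0.0084 on the other 24 arrays, and its Actb difference was 0.124, against 0.239 to 0.682. Most counts, medians and named changes against 0 mM are therefore given also without this array. The added poly-A control transcripts were at or below 1.12 on 11 arrays, all those of 0 and 0.14 mM and 2 each of 0.35 and 0.7 mM, and at or above 1.75 on the other 14, so that their level cannot be told apart from dose between 0 mM and 1.4 to 3.5 mM.

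The start regions of these genes carry the features for which the family is known. RefSeq windows of 300 bases, 250 before and 50 after the listed start (GRCm38.p6), matched 44 of the 50 genes and gave 52 windows. A C followed by at least 5 further pyrimidines, on the sense strand, lay within 20 bases of the listed start in 30 of the 52 windows (57.7%), against 6909 of 21263 windows of protein-coding genes (32.5%), and within 5 bases in 17 (32.7%) against 9.95%. The letters CCGGAAG, bound by factors of the ETS family and searched on both strands over the 300 bases, were in 21 windows (40.4%) against 11.6%. AAGATGGC, a YY1 motif searched in the same way, was in 4 (7.69%) against 3.05%. The run and CCGGAAG were both present in 15 member windows; their letters can overlap. A match is a string of letters and not a shown site, and a listed start need not be the start used in these cells. The 8 sequences below span 60 bases before and 20 after the listed start and belong to the members on which the results turn: Rps25, Rps6 and Rpl7l1, which were called at high dose, Rpl22l1, which moved between the last doses, Rpl41 and Rps18, which read low in the middle of the series, Rpl14, with the lowest change, and Rplp2, with small changes. Capitals mark the pyrimidines from the C of such a run that lies nearest to the listed start to the end of the run; the stretch of C and T can open further upstream.
Rps25 (chr9:44407654-44407733, plus strand): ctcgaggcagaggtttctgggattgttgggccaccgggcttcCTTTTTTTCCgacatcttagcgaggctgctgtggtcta
Rps6 (chr4:86857348-86857427, minus strand): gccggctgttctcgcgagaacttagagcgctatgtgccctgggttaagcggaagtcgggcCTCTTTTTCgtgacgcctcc
Rpl22l1 (chr3:28805448-28805527, plus strand): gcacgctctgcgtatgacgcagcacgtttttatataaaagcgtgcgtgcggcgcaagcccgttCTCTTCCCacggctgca
Rpl41 (chr10:128549149-128549228, minus strand): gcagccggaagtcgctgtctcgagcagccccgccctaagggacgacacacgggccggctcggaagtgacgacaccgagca
Rps18 (chr17:33955646-33955725, minus strand): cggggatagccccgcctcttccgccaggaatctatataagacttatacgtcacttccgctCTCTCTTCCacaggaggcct
Rpl14 (chr9:120571457-120571536, plus strand): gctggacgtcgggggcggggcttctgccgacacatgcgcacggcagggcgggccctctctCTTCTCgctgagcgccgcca
Rplp2 (chr7:141447591-141447670, plus strand): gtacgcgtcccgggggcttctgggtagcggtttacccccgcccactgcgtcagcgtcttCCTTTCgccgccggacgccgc
Rpl7l1 (chr17:46782637-46782716, minus strand): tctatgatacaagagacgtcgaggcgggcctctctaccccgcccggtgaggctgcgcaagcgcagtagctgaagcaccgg
In Rps6, Rps18 and Rpl14 a C of the run stands at base 1 of the listed transcript, where a TOP tract begins. The whole stretch of C and T is longer, however: it opens 1 base before the listed start in Rps6, 2 before in Rps18 and 8 before in Rpl14. In Rplp2 it opens 5 bases before, in Rpl22l1 at base 2 and in Rps25 22 bases before the listed start. These stretches are 10 to 14 bases long. No such run lay within 20 bases of the listed start in the windows of Rpl41 and Rpl7l1.

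Ribosomal protein transcripts were among the brightest on the arrays at every dose, and most of them differed little between doses. On every one of the 25 arrays 34 of the 50 members were above the 99th percentile, which lay between 6.31 and 6.69, while the highest value in the table was 8.71. Whether signals this close to the top of the scale are compressed was not tested. Only 4 members had a mean below the array median, the paralogs Rpl39l, Rpl3l and Rps4l and the small subunit gene Rps16, whose single-symbol probe set reads dim at -1.45 to -1.01. Against 0 mM, the largest change over the 7 doses was under 0.5 log2 units in size in 44 of 50 members (88.0%), against 68.2% of all 45037 probe sets, and its median was 0.18 against 0.32. Of the 150 other bright probe sets 88.7% were under 0.5, with a median of 0.28, so the share of small changes was close to that of bright probe sets in general. With replicate 1 of 0 mM left out 46 of 50 members (92.0%) were under 0.5, against 86.7% of the other bright and 68.3% of all probe sets. For a gene measured with such small errors, an interval says more than a missed threshold. The 95% interval of the change stayed within 1.5-fold either way in 44, 44, 46, 44, 45, 43 and 40 members from the lowest to the highest dose, where 71.4%, 64.8%, 70.1%, 63.3%, 62.1%, 63.3% and 64.0% of all probe sets did so. Without that control array it did in 48, 45, 47, 45, 44, 42 and 43 members, against 62.5% to 69.6% of all probe sets. The moderated F test over the 7 doses (limma, p-values adjusted by Benjamini and Hochberg over 45037 probe sets, called under 0.05) called 8 of 50 members, against 24.7% of all probe sets. An unadjusted F test p under 0.05 was found for 13 of the 50 members and for 16920 of the 45037 probe sets. The 8 were Rps25 (adjusted p = 0.00073), Rpl22l1 (0.016), Rpl41 (0.029), Rpl14 (0.038), Rps6 (0.041), Rpl37 (0.043), Rpl12 (0.046) and Rps18 (0.049), and Rps19 (0.053) and Rps9 (0.068) came next. Without replicate 1 of 0 mM the F test called 14 members, against 27.2% of all probe sets: the same 8 with Rps19 (0.011), Rpsa (0.015), Rps15 (0.018), Rps19bp1 (0.027), Rpl22 (0.040) and Rps14 (0.050).

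**Figure D1:**
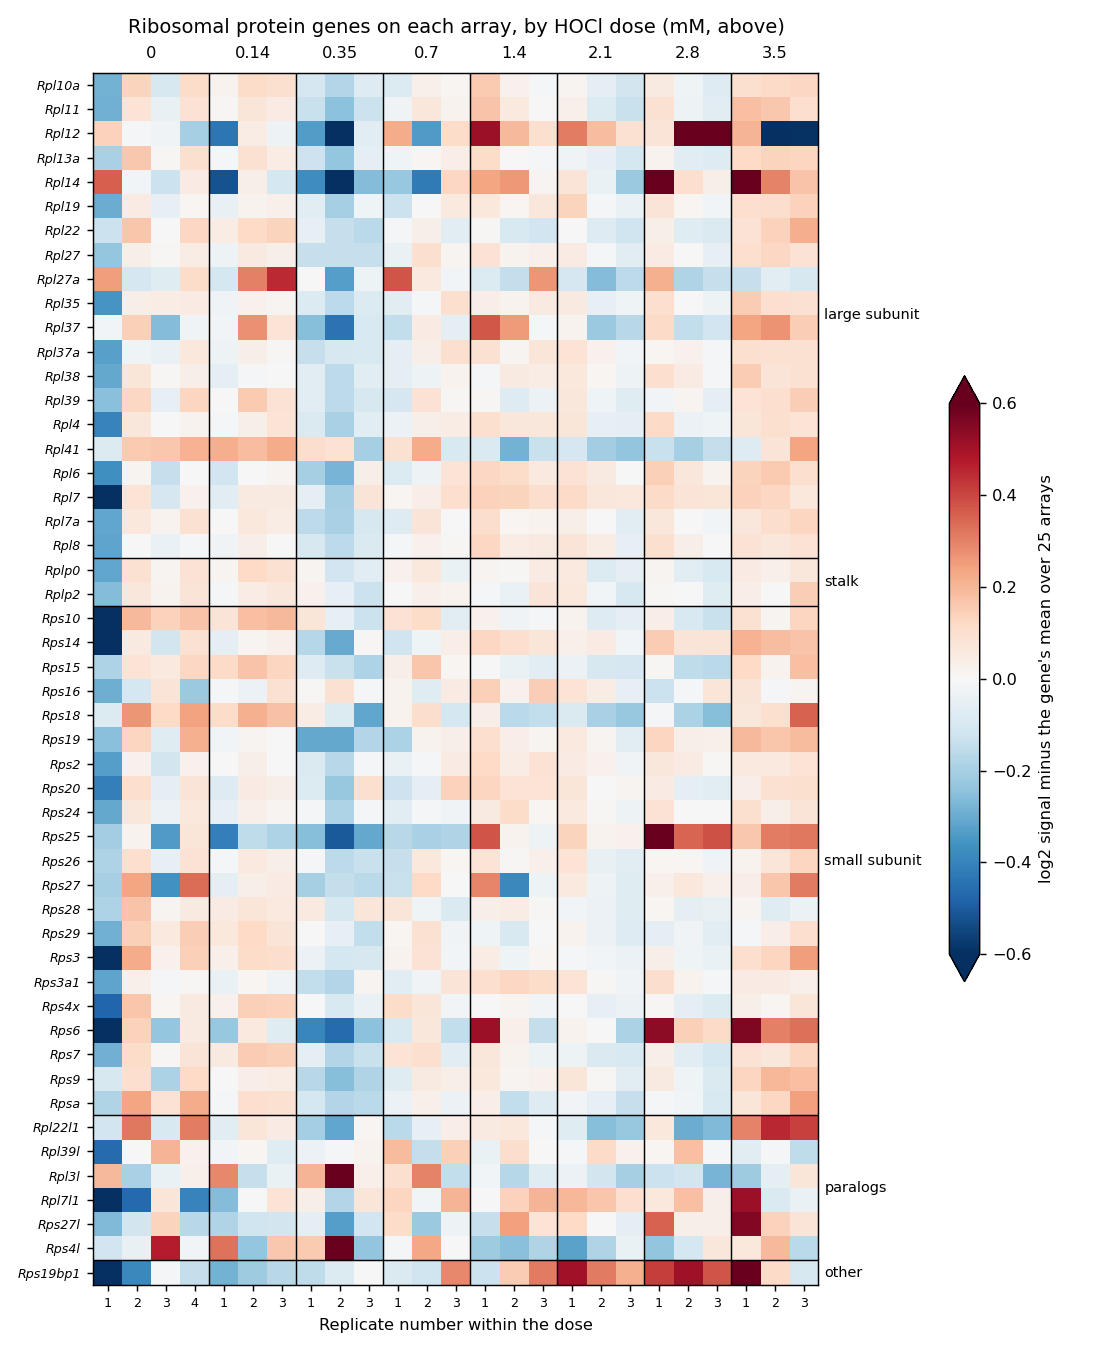
Each row is 1 of the 50 genes and each column 1 of the 25 arrays, grouped by HOCl dose in mM; colour gives the log2 signal minus that gene's mean over the arrays, drawn from -0.6 to 0.6. Most rows are pale, 0 mM replicate 1 is blue in 46 of 50 rows, and the strong colours fall on a few rows such as Rps25, Rps6, Rpl12, Rpl14 and Rps19bp1.

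The median of the list lay close to 0 at every dose. The median change over the 50 members was 0.07, -0.06, 0.05, 0.09, 0.03, 0.04 and 0.15 from 0.14 to 3.5 mM, each against 0 mM, while the median over all probe sets lay between 0.015 and 0.082. Members above 0 numbered 43, 13, 37, 38, 32, 33 and 43 of 50. With replicate 1 of 0 mM left out the medians became -0.02, -0.16, -0.04, 0.0008, -0.05, -0.03 and 0.05, and members above 0 numbered 21, 5, 12, 25, 14, 17 and 38. At 0.14, 0.7, 2.1 and 2.8 mM the sign of the list's median turned without that array. It turned as well with all 25 arrays after quantile normalization, where the medians were -0.006, -0.037, -0.013, 0.004, -0.030, -0.004 and 0.044 from the lowest to the highest dose. At 0.35 mM it was below 0 and at 3.5 mM above 0 in all 3 settings. At 3.5 mM, however, the median over all probe sets was above 0 as well. Without replicate 1 of 0 mM it was 0.072, higher than the 0.053 of the members. After quantile normalization it was 0.035, against 0.044 for the members. Array by array, the median member lay at -0.079, -0.171 and -0.088 relative to its own mean at 0.35 mM. At 3.5 mM it lay at 0.092, 0.098 and 0.101. The 3 arrays of 3.5 mM were the highest of the 25, and the 3 of 0.35 mM were the lowest after 0 mM replicate 1. After quantile normalization, which gives all arrays the same distribution, 0 mM replicate 1 lay at 0.031, the arrays of 0.35 mM at -0.071, -0.030 and -0.073 and those of 3.5 mM at 0.028, 0.077 and 0.037.

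**Figure D2:**
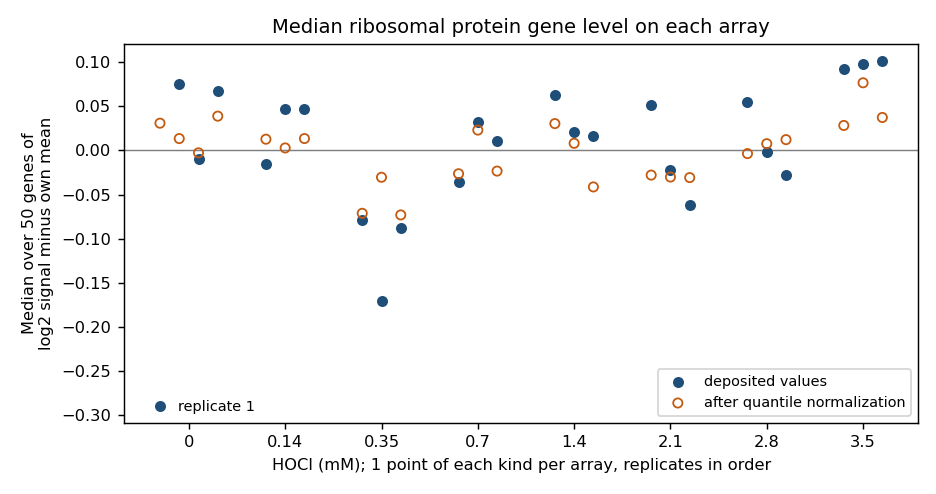
For each array, the median over the 50 genes of the log2 signal minus the gene's mean over the 25 arrays, by HOCl dose in mM; filled points are the deposited values and open points the values after quantile normalization. Replicate 1 of 0 mM lies at -0.289 in the deposited values and at 0.031 after normalization, and the 3.5 mM arrays lie at 0.092 to 0.101 in the deposited values.

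Few members passed the test at any dose, and all that did were higher than at 0 mM. At 0.14, 0.35, 0.7 and 1.4 mM limma called 0 of 50 members, where 0.00444%, 6.43%, 0.133% and 7.81% of all probe sets were called; 1, 9, 2 and 11 members had an unadjusted p under 0.05, against 8.90%, 22.3%, 11.4% and 23.5% of all probe sets. At 2.1 mM 2 members were called (background 13.4%), at 2.8 mM 3 (11.9%) and at 3.5 mM 2 (9.32%), with 5, 10 and 16 at an unadjusted p under 0.05 against 27.9%, 26.2% and 25.4%. By direction, 0.00444%, 1.71%, 0.12%, 4.39%, 7.26%, 5.64% and 3.93% of all probe sets were called higher at the 7 doses and 0, 4.72%, 0.0133%, 3.43%, 6.09%, 6.26% and 5.40% lower. The called members were Rpl7l1 at each of the 3 doses, Rps19bp1 at 2.1 and 2.8 mM, Rps25 at 2.8 mM and Rps6 at 3.5 mM. When that control array was left out 0, 2, 0, 1, 5, 4 and 0 members were called at the 7 doses, against 0.0178%, 6.13%, 0.158%, 6.07%, 12%, 10.2% and 8.95% of all probe sets, and 9 of these calls were falls; 0, 25, 2, 8, 12, 12 and 8 members then had an unadjusted p under 0.05, against 9.64%, 21.7%, 10.8%, 20.6%, 25.5%, 23.9% and 23.4% of all probe sets. Separation of the arrays differed from the calls at 3.5 mM, where the share of members wholly above 0 mM was over the background and the share called was under it. All 3 arrays of the dose were above all 4 of 0 mM in 0, 0, 0, 5, 2, 4 and 16 members, where 4.4%, 6.25%, 4.86%, 11%, 16.2%, 12.7% and 11.9% of all probe sets were, and all were below in 0, 1, 0, 2, 2, 1 and 0, where 4.60%, 7.65%, 3.23%, 8.10%, 11.9%, 8.17% and 7.72% were. The 16 members whose 3.5 mM arrays all lay above 0 mM were Rpl4, Rpl6, Rpl8, Rpl11, Rpl19, Rpl27, Rpl35, Rpl37, Rpl37a, Rpl38, Rps2, Rps3a1, Rps6, Rps9, Rps14 and Rps25. After quantile normalization 6 members did so, against 8.89% of all probe sets, and without replicate 1 of 0 mM 17 did, against 16.8%. At 0.35 mM 12 members were wholly below after quantile normalization, against 7.92%, and 24 without that array, against 10.8%.

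**Figure D3:**
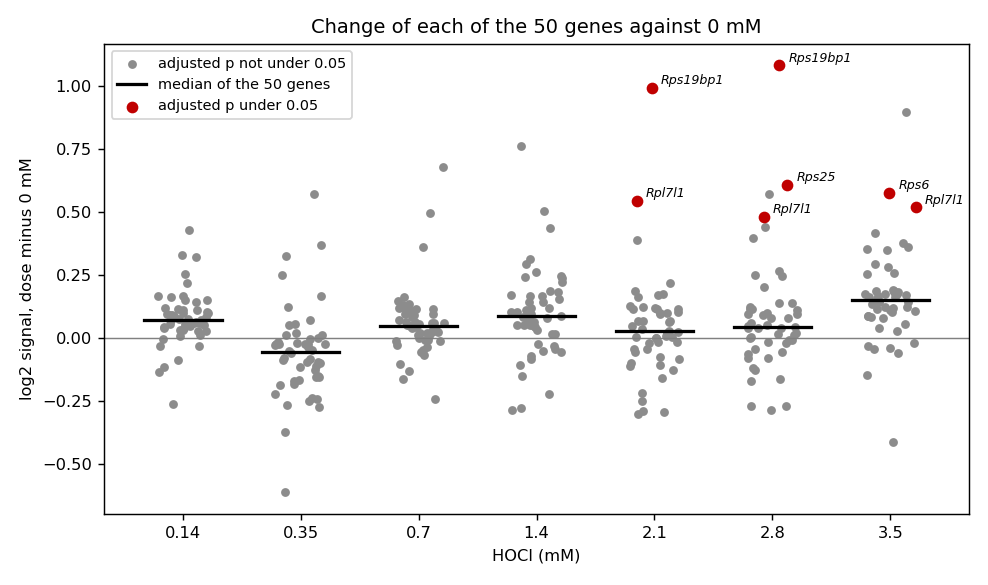
Change of each of the 50 genes at each HOCl dose (mM) against 0 mM, as log2 signal of the dose minus that of 0 mM; black bars are medians and red points are genes with an adjusted p under 0.05 (limma). The called genes are Rpl7l1 and Rps19bp1 at 2.1 mM, these and Rps25 at 2.8 mM, and Rps6 and Rpl7l1 at 3.5 mM, while the medians stay between -0.06 and 0.15.

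In the large subunit no gene of 20 was called against 0 mM, and 4 of 20 were called by the F test. Rpl41 encodes the smallest ribosomal protein. Its signal was 7.91, 8.15, 8.16 and 8.20 on the 4 arrays of 0 mM, 8.21, 8.18 and 8.22 at 0.14 mM, 8.10, 8.08 and 7.80 at 0.35 mM and 8.08, 8.22 and 7.90 at 0.7 mM. It then read 7.91, 7.71 and 7.86 at 1.4 mM, 7.89, 7.79 and 7.76 at 2.1 mM, 7.86, 7.79 and 7.85 at 2.8 mM and 7.92, 8.07 and 8.23 at 3.5 mM. All arrays of 1.4, 2.1 and 2.8 mM lay below all arrays of 0 mM, and those of 3.5 mM overlapped them. The changes at these 3 doses were -0.28, -0.29 and -0.27 (SE 0.10 each, adjusted p = 0.0833, 0.0505 and 0.0767). Without replicate 1 of 0 mM they were -0.34, -0.36 and -0.33 (adjusted p = 0.0415, 0.0202 and 0.0326). The 3 other Rpl41 probe sets had means of 7.96, 1.74 and 1.42. Their adjusted F test p were 0.742, 0.0764 and 0.0610, so a probe set about as bright was not called.

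Rpl14 and Rpl12 vary more, at a much lower signal. Rpl14 encodes a large subunit protein, and it read 2.65, 2.27, 2.16 and 2.34 at 0 mM and 1.92, 1.28 and 2.03 at 0.35 mM, all below; the change of -0.61 (SE 0.21) had an adjusted p of 0.0844, and it was -0.52 (0.175) without replicate 1 of 0 mM. At 3.5 mM it read 3.06, 2.59 and 2.47. Rpl12, which sits at the base of the stalk, read 2.94, 2.79, 2.78 and 2.60 at 0 mM, 2.88, 3.57 and 3.59 at 2.8 mM and 3.00, 1.88 and 2.21 at 3.5 mM. Its changes against 0 mM were 0.57 (SE 0.23) and -0.41 (SE 0.23) at those doses, its arrays overlapped those of 0 mM at both, and without replicate 1 of 0 mM the changes were 0.62 and -0.36. Rpl37, a small zinc-binding protein of the large subunit, read 5.14, 5.30, 4.90 and 5.13 at 0 mM, 4.90, 4.71 and 5.06 at 0.35 mM and 5.39, 5.43 and 5.30 at 3.5 mM, where the change was 0.26 (SE 0.11, adjusted p = 0.166), and also 0.26 without replicate 1 of 0 mM. Rpl11, which binds the p53 ubiquitin ligase Mdm2 when ribosome assembly fails, was at 7.51, 7.89, 7.76 and 7.89 at 0 mM and 7.98, 7.97 and 7.90 at 3.5 mM. Its change was 0.19 (SE 0.08, 95% interval 0.01 to 0.36, adjusted p = 0.162), and 0.11 without that array. Rpl13a, Rpl39 and Rpl22 had changes of -0.16 to 0.11, -0.10 to 0.12 and -0.16 to 0.11 over the 7 doses, and of -0.23 to 0.04, -0.18 to 0.04 and -0.21 to 0.05 without it. Rpl7 shows how far the control array weighs: it read 6.49 on 0 mM replicate 1 and 7.63 to 7.81 on the other 3, so its changes of 0.25 to 0.44 had standard errors of 0.20, and without that array they were -0.06 to 0.12. The small subunit genes Rps3 and Rps10 were alike, at 6.73 and 6.97 on that array against 7.68 to 7.88 and 8.02 to 8.08 on the other 3.

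The stalk genes were among the least changed. Rplp0, a common reference gene in quantitative PCR, read 7.58, 7.98, 7.91 and 7.98 at 0 mM, and its means at the 7 doses lay between 7.84 and 7.97. Its changes ran from -0.02 to 0.10 (SE 0.08), and at 3.5 mM the 95% interval was -0.09 to 0.25. Rplp2 read 7.78, 8.11, 8.06 and 8.11 at 0 mM, with means of 7.99 to 8.10 at the doses, changes of -0.03 to 0.09 (SE 0.08) and a 95% interval of -0.08 to 0.25 at 3.5 mM. For both genes the interval at each dose excludes a change of 1.5-fold in either direction. Their changes without replicate 1 of 0 mM were -0.12 to 0.01 for Rplp0 and -0.10 to 0.01 for Rplp2. Rps28, of the small subunit, had changes of -0.05 to 0.05 with all arrays and a largest change of -0.12 without that array.

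In the small subunit 1 gene of 21 was called at 2.8 mM and 1 at 3.5 mM, and 3 of 21 were called by the F test. Rps25, which is dispensable for most translation and is used in internal initiation, read 3.74, 3.97, 3.61 and 4.02 at 0 mM. It read 3.54, 3.79 and 3.76 at 0.14 mM, 3.69, 3.44 and 3.64 at 0.35 mM, and 3.78, 3.75 and 3.76 at 0.7 mM. At 1.4 mM it was at 4.33, 3.97 and 3.92, at 2.1 mM at 4.08, 3.97 and 3.97, at 2.8 mM at 4.70, 4.30 and 4.33, and at 3.5 mM at 4.11, 4.26 and 4.26. The arrays of 2.8 and 3.5 mM lay above all arrays of 0 mM. At 2.8 mM Rps25 rose by 0.61 (SE 0.12, 95% interval 0.36 to 0.86, 1.52-fold, limma adjusted p = 0.00287), and at 3.5 mM the difference was 0.38 (SE 0.12, adjusted p = 0.0538). The call at 2.8 mM held when each of the 25 arrays was left out in turn, with adjusted p of 0.00161 to 0.0141 and changes of 0.48 to 0.68. The call was lost with the spike level as a term (0.57, adjusted p = 0.153) and with only the arrays of 0 and 2.8 mM in the fit (0.61, 0.0641), with the change about as large. Array weights kept the call and moved the change to 0.39 (adjusted p = 0.0015), but those weights had not settled and carry no result. Weights estimated gene by gene gave 0.385 (adjusted p = 0.0013).

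Rps6, the small subunit protein phosphorylated by the S6 kinases downstream of mTOR, read 1.46, 2.27, 1.90 and 2.18 at 0 mM. At 2.8 mM it was at 2.67, 2.27 and 2.24 and at 3.5 mM at 2.69, 2.43 and 2.46, the latter above all arrays of 0 mM. The change at 3.5 mM was 0.58 (SE 0.17, 95% interval 0.22 to 0.93, 1.49-fold, limma adjusted p = 0.0367). This call was lost without replicate 1 of 0 mM (0.41, adjusted p = 0.1001), without replicate 3 of 0 mM (0.56, 0.0623) and without replicate 1 (0.49, 0.141), 2 (0.62, 0.0632) or 3 (0.61, 0.0727) of 3.5 mM. After quantile normalization Rps6 was called at 2.8 mM (0.52) and 3.5 mM (0.63).

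Rps18, a protein of the head of the small subunit, read 7.79, 8.14, 7.99 and 8.12 at 0 mM, 7.98, 8.09 and 8.05 at 0.14 mM, 7.92, 7.79 and 7.56 at 0.35 mM and 7.89, 7.98 and 7.77 at 0.7 mM. It was at 7.92, 7.71 and 7.73 at 1.4 mM, 7.79, 7.68 and 7.65 at 2.1 mM, 7.87, 7.68 and 7.62 at 2.8 mM and 7.94, 7.97 and 8.23 at 3.5 mM. The course is that of Rpl41, low in the middle of the series and back among the control values at 3.5 mM, and at 2.1 mM its arrays were all below those of 0 mM. Its change was -0.30 (SE 0.10, adjusted p = 0.0583) at 2.1 mM and -0.29 (SE 0.10, adjusted p = 0.0813) at 2.8 mM. The 5 other Rps18 probe sets had means of 7.81, 7.72, 0.41, -0.45 and -0.62. Their adjusted F test p were 0.135, 0.443, 0.0166, 0.00076 and 0.0737, so the bright ones were not called. Rpsa, a laminin-binding protein as well as a subunit, read 7.77, 8.19, 8.04 and 8.18 at 0 mM and 7.85, 7.78 and 7.79 at 0.35 mM, a change of -0.24 (SE 0.09, adjusted p = 0.1001). Rps19, the gene most often mutated in Diamond-Blackfan anaemia, read 7.35, 7.73, 7.53 and 7.81 at 0 mM, 7.30, 7.29 and 7.42 at 0.35 mM and 7.80, 7.77 and 7.79 at 3.5 mM. Its changes were -0.27 (SE 0.09, adjusted p = 0.0793) and 0.18 (SE 0.09, adjusted p = 0.215). Rps9 had a change of -0.18 at 0.35 mM and of 0.18 at 3.5 mM (SE 0.07 each), and Rps27 had changes of -0.17 to 0.17. When replicate 1 of 0 mM was left out these were -0.21 and 0.16 for Rps9 and -0.24 to 0.10 for Rps27.

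The falls in bright members depended on the control array and on the normalization. Without replicate 1 of 0 mM, Rps19 (-0.35, adjusted p = 0.0181) and Rpsa (-0.33, 0.0162) fell at 0.35 mM and Rpl41 fell at 1.4 mM. At 2.1 mM Rpl41, Rps18 (-0.38, 0.0212), Rpsa (-0.25, 0.0286) and Rpl22l1 (-0.36, 0.0470) fell, and at 2.8 mM Rpl41 and Rps18 (-0.36, 0.0314) fell. In that fit Rps25 (0.58, 0.00823) and Rps19bp1 (0.61, 0.0241) rose at 2.8 mM and Rps19bp1 rose at 2.1 mM (0.52, 0.0463). With all 25 arrays and quantile normalization the members called higher and lower were 0 and 4 at 0.35 mM, 0 and 4 at 1.4 mM, 1 and 5 at 2.1 mM, 4 and 4 at 2.8 mM and 2 and 0 at 3.5 mM, against 7.09%, 8.98%, 14%, 12.5% and 9.60% of all probe sets called. The lower ones were Rps19, Rps9, Rpsa and Rpl22l1 at 0.35 mM, Rpl22, Rpl41, Rps18 and Rpsa at 1.4 mM, these and Rpl22l1 at 2.1 mM, and Rpl41, Rps15, Rps18 and Rpl22l1 at 2.8 mM, with changes between -0.46 and -0.19. With the deposited values and all arrays none of these falls was called. At 3.5 mM no member was called lower in any of the 3 settings.

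**Figure D4:**
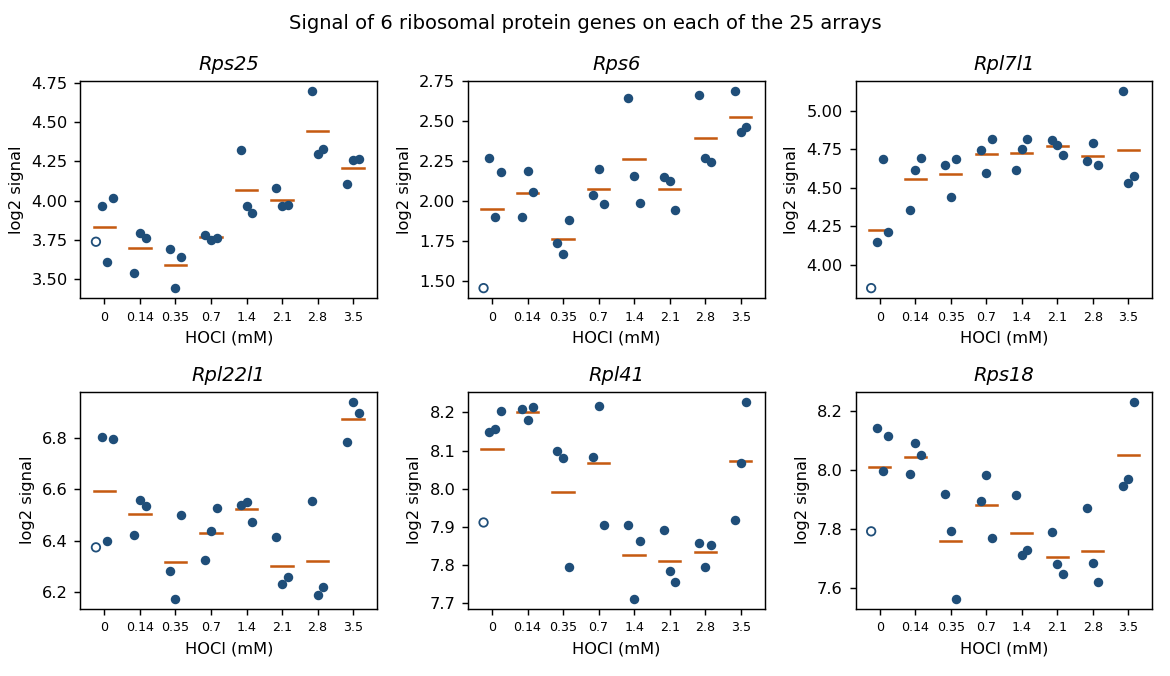
Log2 signal of Rps25, Rps6, Rpl7l1, Rpl22l1, Rpl41 and Rps18 on each of the 25 arrays by HOCl dose (mM); bars are means of the dose and the open point is 0 mM replicate 1. Rps25 and Rps6 have their highest means at 2.8 and 3.5 mM, Rpl41 and Rps18 have their lowest at 2.1 mM, and all 3 arrays of 3.5 mM lie above those of 2.8 mM in Rpl22l1.

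The paralogs, which can take the place of a canonical protein in some ribosomes or tissues, gave the other calls. Rpl7l1, a relative of Rpl7 that takes part in assembly of the large subunit, read 3.85, 4.15, 4.69 and 4.21 at 0 mM. At every dose its mean was higher, from 4.55 at 0.14 mM to 4.77 at 2.1 mM. It read 4.81, 4.78 and 4.72 at 2.1 mM, 4.68, 4.79 and 4.65 at 2.8 mM and 5.13, 4.53 and 4.57 at 3.5 mM. Only at 2.1 mM did all 3 arrays lie above all 4 of 0 mM. Rpl7l1 rose by 0.54 at 2.1 mM (SE 0.16, 95% interval 0.22 to 0.87, 1.46-fold, limma adjusted p = 0.0247), by 0.48 at 2.8 mM (SE 0.16, 1.39-fold, adjusted p = 0.0492) and by 0.52 at 3.5 mM (SE 0.16, 1.43-fold, adjusted p = 0.0393). All 3 calls were lost without replicate 1 of 0 mM (0.42, 0.36 and 0.39; adjusted p = 0.0741, 0.145 and 0.109), without replicate 2 of 0 mM (adjusted p = 0.0545, 0.0981 and 0.0839) and without replicate 4 of 0 mM (0.0515, 0.0889 and 0.0698). Leaving out any 1 array of 2.1 mM also ended the call there (adjusted p = 0.0597 to 0.0857), 20 of the 25 omissions ended that at 2.8 mM, and leaving out replicate 1 of 3.5 mM ended that at 3.5 mM (0.33, adjusted p = 0.230). Averaged over its probe sets, the Rpl7l1 change at 3.5 mM was -0.02.

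Rpl22l1, which can replace Rpl22 in the ribosome, read 6.37, 6.80, 6.40 and 6.80 at 0 mM and 6.78, 6.94 and 6.90 at 3.5 mM, while its means at the other doses ran from 6.30 to 6.52. Against 0 mM its change was 0.28 at 3.5 mM (SE 0.12, adjusted p = 0.133; 0.21 without replicate 1 of 0 mM) and -0.29 at 2.1 mM (SE 0.12, adjusted p = 0.102). Rps27l, a p53 target in other cells, read 6.29, 6.44, 6.69 and 6.39 at 0 mM and 7.11, 6.69 and 6.63 at 3.5 mM, a change of 0.36 (SE 0.13, adjusted p = 0.0834) with overlap, and 0.31 without replicate 1 of 0 mM. Of the other 2 Rps27l probe sets, 1 rose by 0.34 at 2.8 mM (SE 0.11, adjusted p = 0.047) and by 0.42 at 3.5 mM (SE 0.11, 0.017), and the other had 0.16 and 0.27 (SE 0.10, 0.367 and 0.104). Without that control array the first had 0.32 (0.0867) and 0.41 (0.0335). Rpl39l, Rpl3l and Rps4l, whose products are known from testis, muscle and other restricted settings, lay below the array median and had no call. Rps19bp1, outside the ribosome itself, read 1.55, 3.23, 3.61 and 3.48 at 0 mM, 4.12, 3.93 and 3.83 at 2.1 mM and 4.03, 4.13 and 4.00 at 2.8 mM. It rose by 0.99 at 2.1 mM (SE 0.32, 1.99-fold, limma adjusted p = 0.0432) and by 1.08 at 2.8 mM (SE 0.32, 2.12-fold, adjusted p = 0.0314). Without replicate 1 of 0 mM the same rises measured 0.52 and 0.61 and were still called. Left out in turn, 11 of the 25 arrays ended the call at 2.1 mM, with adjusted p of 0.0510 to 0.144, and each of the 3 arrays of 2.8 mM ended the call at 2.8 mM, with 0.0575 to 0.111. After quantile normalization the call at 2.1 mM was lost (0.93, adjusted p = 0.0533).

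Steps between neighbouring doses above 0 do not use the level of 0 mM replicate 1, which enters them only through the shared estimate of spread. From 0.14 to 0.35 mM 44 of 50 members had a lower mean, with a median of -0.15, and in 29 all 3 arrays of 0.35 mM lay below all 3 of 0.14 mM, against 11.9% of all probe sets. In the large and small subunits 20 of 20 and 20 of 21 had a lower mean, while 4 of 6 paralogs had a higher one. No member was called at that step (3.37% of all probe sets were), 15 had an unadjusted p under 0.05 against 14.9%, and the smallest adjusted p was that of Rps15 (-0.27, adjusted p = 0.073). Of the 150 other bright probe sets 46 were all below as well. After quantile normalization the median was -0.07, and 20 members were all below, against 13.3%. From 0.35 to 0.7 mM 46 members had a higher mean, with a median of 0.11. In 16 all 3 arrays of 0.7 mM were above, against 7.11% of all probe sets. Limma called 0 members and 0 probe sets in all, with 5 members at an unadjusted p under 0.05, against 6.64% of all probe sets. After quantile normalization 40 members had a higher mean at this step, with a median of 0.05. Only 6 were then all above, against 5.02% of all probe sets. The next 3 steps had medians of 0.04, -0.05 and 0.02. Limma called 0 members in each, where 0, 0 and 0.0244% of all probe sets were called. In these steps 3, 1 and 1 members had an unadjusted p under 0.05, against 8.94%, 2.98% and 5.86% of all probe sets.

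From 2.8 to 3.5 mM 45 of 50 members had a higher mean, with a median of 0.09, and 2 were called, against 11.2% of all probe sets. All 3 arrays of 3.5 mM lay above all 3 of 2.8 mM in 24 members, against 14.4% of all probe sets, and below in 2, against 11.3%; after quantile normalization 13 were above, against 13.8%. Rpl22l1 rose from 6.55, 6.19 and 6.22 to 6.78, 6.94 and 6.90, with no overlap. The difference was 0.55 (SE 0.12, 95% interval 0.29 to 0.81, 1.47-fold, limma adjusted p = 0.00623), and it was called in all 25 fits that left out 1 array, with adjusted p up to 0.0485. Rpl12 fell from 2.88, 3.57 and 3.59 to 3.00, 1.88 and 2.21, with replicate 1 of 3.5 mM inside the range of 2.8 mM. The difference was -0.98 (SE 0.25, 1.98-fold lower, adjusted p = 0.0130). It was not called without replicate 2 (-0.87, adjusted p = 0.0817) or 3 (-0.86, 0.0832) of 2.8 mM, or without replicate 2 (-0.74, 0.0890) or 3 (-0.90, 0.0663) of 3.5 mM.

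The brightest probe set of a gene and its other probe sets gave different values in several genes. Of the 50 genes 24 had other single-symbol probe sets, 56 in all. With all arrays the F test called 16 of these 56 (28.6%), near the 24.7% of all probe sets, in 13 genes. It called the brightest probe set in 3 of the 24. Without replicate 1 of 0 mM it called 21 of the 56, against 27.2% of all probe sets. After quantile normalization it called 19 of the 56, against 26.5%. The 6 described here were chosen after their values were seen. A second probe set of Rpl22, whose product binds RNA and is a large subunit protein, fell by 2.52 at 0.35 mM (SE 0.58, limma adjusted p = 0.016), 2.43 at 2.1 mM (0.0087) and 1.93 at 2.8 mM (0.034) and differed by 0.12 at 3.5 mM, while the brightest one had changes of -0.16 to 0.11 and the other remaining one fell by 0.33 at 0.35 mM (0.0154). Of 5 other probe sets of Rps24, 1 fell by 2.56 at 3.5 mM (SE 0.28, adjusted p = 7.2e-06), where the brightest had a change of 0.12 and the remaining 4 had -0.25 to 0.89, none called. For Rps3, which also has a role in DNA repair, a second probe set fell by 1.44 at 0.35 mM (SE 0.28, adjusted p = 0.0087) and the brightest had 0.05. At 3.5 mM a probe set of Rps9 fell by 1.22 (SE 0.20, adjusted p = 0.00057) and 1 of 5 others of Rpl35 fell by 0.98 (SE 0.13, adjusted p = 5e-05), against 0.18 and 0.17 for the brightest. The remaining 4 of Rpl35, with means of 7.68 to 7.73, had changes of 0.14 to 0.42, none called. A probe set of Rpl37a rose by 0.93 at 2.8 mM (SE 0.13, adjusted p = 0.00027), against 0.09. Without replicate 1 of 0 mM these changes were -2.50, -2.41, -2.48, -1.38, -1.21, -0.98 and 0.98 for Rpl22 at 0.35 and 2.1 mM, Rps24, Rps3, Rps9, Rpl35 and Rpl37a, each still called; Rpl22 at 2.8 mM had -1.92 (0.0606). In Rps3, Rps9 and Rpl37a the remaining other probe set was not called at those doses (0.21, 0.19 and 0.06). All of these second probe sets are much dimmer than the brightest of their genes, with means over the arrays of -0.14 to 2.71. Only that of Rpl35 lies below the array median, however. The F test also called other probe sets far above the median, among them those of Rpl27 and Rps15 and the other remaining one of Rpl22. Calls among the 56 were thus not limited to low signals. The files do not say which part of a transcript each probe set reads, and the difference between probe sets was not tested.

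**Figure D5:**
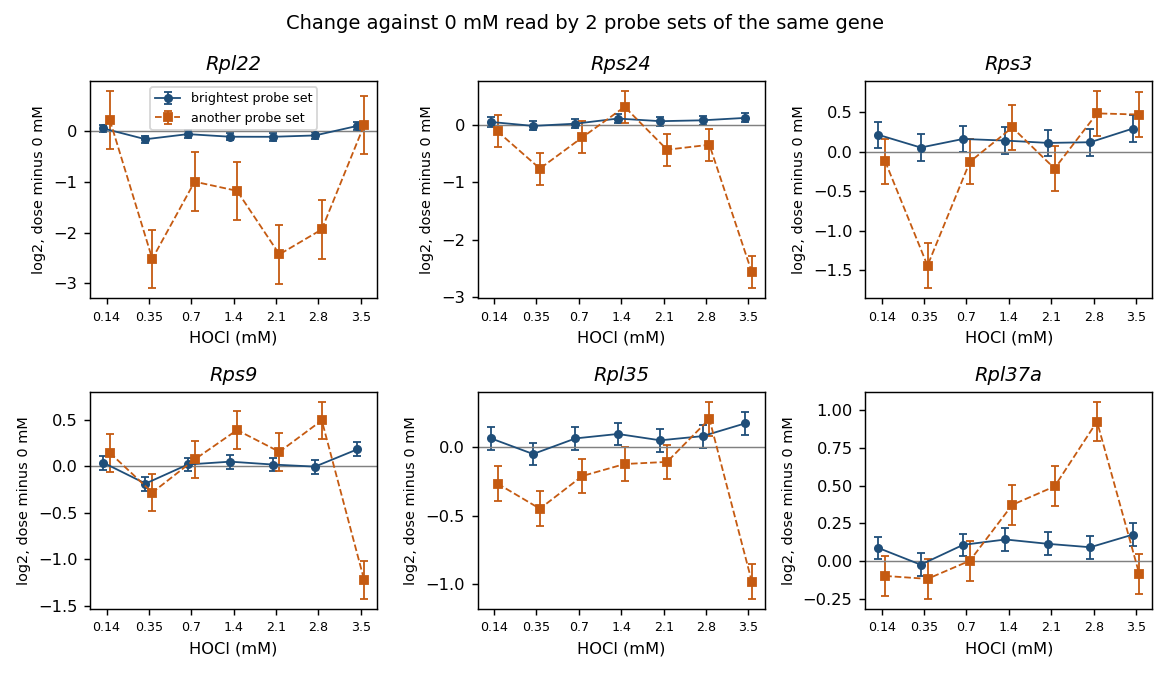
Change against 0 mM (log2 signal, with standard errors from the fit) at 7 HOCl doses (mM) for Rpl22, Rps24, Rps3, Rps9, Rpl35 and Rpl37a, from the brightest probe set (circles) and from another probe set of the same gene (squares). The brightest stays within 0.3 log2 units of 0, while the other falls to -2.56 for Rps24 and rises to 0.93 for Rpl37a.

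Ribosomal protein genes left out by the rule could be read through probe sets that also carry predicted genes or pseudogenes. There were 98 such probe sets for 36 genes, 24 of them not members, and 15 of the 98 (15.3%) were called by the F test, against 24.7% of all probe sets. Read from the brightest of these, the 36 genes had medians of 0.06, -0.09, 0.02, 0.09, 0.02, 0.04 and 0.11 at the 7 doses against 0 mM. Calls were 0 except 1 rise at 2.8 mM, against 0.00444%, 6.43%, 0.133%, 7.81%, 13.4%, 11.9% and 9.32% of all probe sets called. Their medians without replicate 1 of 0 mM were -0.02, -0.16, -0.06, 0.003, -0.07, -0.04 and 0.006. In that fit 0, 5, 0, 1, 3, 4 and 0 of the 36 were called, against 0.0178%, 6.13%, 0.158%, 6.07%, 12%, 10.2% and 8.95% of all probe sets. These probe sets do not tell the gene from its copies.

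Genes around the ribosome were read from lists that fit the pathway. Of 20 listed translation factors and other TOP genes 16 were measured, and 5 (31.2%) were called by the F test, against 24.7% of all probe sets. Against 0 mM 2 fell at 0.35 mM (4.72% of all probe sets did), 1 fell at 2.1 mM (6.09%), 2 rose at 2.8 mM (5.64%) and 2 rose at 3.5 mM (3.93%); without replicate 1 of 0 mM these were 3 falls, 1 fall, 1 rise with 1 fall, and none. Eif3f, a subunit of the initiation factor eIF3, fell by 0.65 at 0.35 mM (SE 0.16, limma adjusted p = 0.021). Eif3l of the same factor rose by 0.33 at 2.8 and 3.5 mM (SE 0.10), and Eef1d, an elongation factor subunit, rose by 0.26 at 3.5 mM (SE 0.07, adjusted p = 0.033). Without that control array Eif3l had 0.29 at 2.8 mM (0.079) and Eef1d 0.25 at 3.5 mM (0.055).

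The assembly factors had larger changes than the members, with a median largest change of 0.63 against 0.18, a difference that was not tested. Their spread within a dose was larger as well, with a median residual standard deviation of 0.315 against 0.102. Of 32 listed ribosome biogenesis genes 31 were measured, and their median change was 0.09, 0.24, 0.33, 0.37, 0.56, 0.53 and 0.02 at the 7 doses. Of the 31, 9 (29.0%) were called by the F test, against 24.7% of all probe sets. At 1.4 mM 2 rose (4.39% of all probe sets did), at 2.1 mM 6 (7.26%) and at 2.8 mM 7 (5.64%); at 3.5 mM 1 rose (3.93%) and 2 fell (5.40%), and 9 fell from 2.8 to 3.5 mM (5.66%). When replicate 1 of 0 mM was left out 1, 4 and 7 rose at 1.4, 2.1 and 2.8 mM, and at 3.5 mM 1 rose and 3 fell. The median changes of the 31 genes at the 7 doses were then 0.18, 0.34, 0.37, 0.46, 0.62, 0.60 and 0.11. Nop14, a small subunit assembly factor, rose by 0.65 at 2.8 mM (SE 0.11, adjusted p = 0.0011; 0.67 without that array). Ppan and Gnl3, which act in large subunit assembly and in the nucleolus, fell by 1.52 (SE 0.24, adjusted p = 0.00033) and 0.99 (SE 0.22, 0.007) at 3.5 mM, with -1.61 and -0.99 without it. Of 12 measured genes of RNA polymerase I and its factors, which make ribosomal RNA, 6 were called by the F test, and 1, 1, 3 and 2 rose at 1.4, 2.1, 2.8 and 3.5 mM, with no fall, where 4.39%, 7.26%, 5.64% and 3.93% of all probe sets rose. Taf1a rose by 1.10 and Taf1d by 0.80 at 2.8 mM (adjusted p = 0.014 and 0.024), and Znrd1 rose by 0.45 at 3.5 mM (0.0076). Without replicate 1 of 0 mM 1, 3, 2 and 2 of them rose at these doses and 1 fell at 0.35 mM, and Taf1d at 2.8 mM had 0.68 (0.068), Taf1a 1.04 (0.0335) and Znrd1 at 3.5 mM 0.49 (0.0069).

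Among 21 measured regulators of ribosomal protein synthesis 12 (57.1%) were called by the F test, against 24.7% of all probe sets. At 0.35 mM 1 rose and 3 fell, at 1.4 mM 2 and 2, at 2.1 mM 2 and 4 and at 2.8 mM 2 and 5. Of all probe sets 1.71%, 4.39%, 7.26% and 5.64% rose at these doses, and 4.72%, 3.43%, 6.09% and 6.26% fell. Without replicate 1 of 0 mM the regulators that rose and fell were 1 and 4, 2 and 2, 3 and 3, and 3 and 3. At 3.5 mM none rose and 7 fell (33.3%), against 3.93% and 5.40% of all probe sets, and without replicate 1 of 0 mM also 0 and 7. Larp1, which holds TOP messenger RNAs when mTOR is off, fell by 1.55 at 3.5 mM (SE 0.23, adjusted p = 0.00021), with -1.48 (0.00079) without replicate 1 of 0 mM. Larp4, which binds poly-A tails and ribosomes, rose by 1.41, 1.42 and 1.498 at 1.4, 2.1 and 2.8 mM (SE 0.24; 1.56, 1.56 and 1.65 without replicate 1 of 0 mM) and was at -0.50 at 3.5 mM. Deptor, an inhibitor of mTOR, fell by 1.38 at 0.35 mM (SE 0.18, adjusted p = 0.0023) and by 0.88 at 3.5 mM (SE 0.18, 0.0039), or by 1.32 and 0.82 without that array. The members' own medians were 0.09, 0.03, 0.04 and 0.15 from 1.4 to 3.5 mM. The mitochondrial ribosomal proteins, which build a separate ribosome, gave a set for comparison. Of 76 measured, 28 (36.8%) were called by the F test against 8 of 50 (16.0%) of the cytosolic set and 24.7% of all probe sets. At 3.5 mM 23 rose (30.3%, against 3.93%) and none fell, with a median of 0.42 and 75 of 76 above 0; without replicate 1 of 0 mM 24 rose and the median was 0.44, and after quantile normalization 18 rose and it was 0.34. At lower doses some fell: 5, 4, 6 and 5 of the 76 at 0.35, 1.4, 2.1 and 2.8 mM (4.72%, 3.43%, 6.09% and 6.26% of all probe sets did), 7, 3, 5 and 2 without that array, and 8, 10, 10 and 11 after quantile normalization; 4 rose at 2.1 mM and 5 at 2.8 mM. Mrpl4 fell by 0.46, 0.70, 0.78 and 0.64 at these doses (SE 0.13; adjusted p = 0.0324, 0.0030, 0.00069 and 0.0027), and by 0.47, 0.71, 0.79 and 0.65 without that array. Mrps30 rose by 0.46 at 3.5 mM (SE 0.08, adjusted p = 0.00069; 0.51 without it), and Mrpl14 fell by 0.62 at 0.35 mM (SE 0.12, 0.0078; -0.53 without it) and rose by 0.41 at 3.5 mM (0.033). No test of the difference between the cytosolic and mitochondrial sets was made.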

How the data were processed

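RNA of 25 cultures was measured, 1 array each. Per the submitters' processing notes the authors used RMA, and they deposited log2 signals, 1 for each probe set, with every array's median at 0; no version of RMA was stated in the labels. Base 2 is an inference from the range of the numbers, on which each fold depends. Scanner files were not analysed here.

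The tests covered 45037 of 45101 probe sets (64 are controls), with no filter. All 25 arrays entered 1 linear model with a mean for each dose (limma 3.58.1, R 4.3.3, 17 residual and 2.99 prior degrees of freedom). Tests were two-sided, with Benjamini-Hochberg adjustment over all probe sets and a call under 0.05. Doses were set against 0 mM, whose 4 arrays these comparisons share, and against the dose before; the F test took all 7 doses. The number of arrays limits the precision. The fit was tested on simulated data.

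The members and lists were chosen with earlier results of these data known. Named members were the 5 largest rises and falls called at a dose, the 10 of lowest F test p and a listed set (15 of 21 measured), and of each other list the 3 of lowest F test p; others are named after their values were seen. Replicate numbers did not pair the arrays: of 84 pairs of same-numbered arrays 19 correlated above 0.1. Alternatives were quantile normalization, no dim probe sets, a trended prior, fits of the compared groups alone, weights for arrays, the replicate block, the spike level, other choices of probe set and leaving out each array. Weights estimated gene by gene, the genes of shared probe sets, and direction and unadjusted counts, intervals, lists, shared and other probe sets without 0 mM replicate 1 were added after seeing the data. Start regions came from RefSeq (GRCm38.p6).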

Additional observations from a re-analysis of the deposited data

Results flagged for a closer look

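At 0 mM 24 sets of values were tested for an array apart from the other 3. They were those of 23 named members and the median of the list. Of the 24, 2 met the criterion, both of them single genes and both through replicate 1. Rpl7 read 6.49 there and 7.63 to 7.81 on the other arrays, a gap of 0.863 of the whole range. Rplp2 read 7.78 there and 8.06 to 8.11 on the others, a gap of 0.834 of the range. Both gaps are above the 95% critical value of Dixon's test for 4 arrays, and chance marks about 1 in 20 groups. Their part in the changes of these genes was not tested beyond leaving out the array.

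The added poly-A control transcripts, which belong to no comparison of the report, differed between the arrays of low and high dose. The lowest array of 1.4 to 3.5 mM was at 1.83, and the arrays of 0 mM were at 0.744 to 1.12, a gap of 0.707.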

How the results depend on the processing

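Over 30 results and 1147 alternatives, 933 were labelled the same, 83 kept direction but lost the call, 2 reversed and 129 moved. A single gene was the same if it kept its direction and its call, and a count if it was equal or within 1.5-fold. A median was the same if it moved by less than 0.080, whatever its sign. That limit is the standard deviation of the members' median between arrays of a dose, and it is 0.040 without 0 mM replicate 1. Several of the medians are smaller than the limit, so the label says little about them. Only single genes could be labelled reversed, so turns in the sign of a median are not among the 2. The counts below show how the calls move between settings. They stand without the share of all probe sets called in the same fit, so they are no result about the members. After quantile normalization 4, 4, 6 and 8 members were called at 0.35, 1.4, 2.1 and 2.8 mM against 0 mM, and the median change was 0.0042 at 1.4 mM and 0.044 at 3.5 mM. Without dim probe sets 1 was called at 1.4 mM. A trended and robust variance prior called 0 at 3.5 mM and 5 by the F test. With only the groups compared in the fit 0 were called at 2.1, 2.8 and 3.5 mM and from 2.8 to 3.5 mM. With the spike level as a term 2 were called at 0.35 mM, 0 at 2.1, 2.8 and 3.5 mM and 2 by the F test.

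Array weights, which gave 0 mM replicate 1 a weight of 0.161, called 4, 32, 10, 7, 12, 13 and 1 members at the 7 doses, 43 by the F test, and 32, 18, 2, 1 and 9 at the steps to 0.35, 0.7, 1.4, 2.8 and 3.5 mM. The weights had not settled, with 95.6 for 0.35 mM replicate 1, so these counts carry no result. The medians were -0.073, -0.014, -0.083, -0.080 and 0.043 from 0.7 to 3.5 mM. Weights estimated gene by gene, added after seeing the data, gave that control array 0.174 and called 4, 18, 4, 7, 17, 14 and 1, 26 by the F test, and 14, 2 and 10 at the steps to 0.35, 2.8 and 3.5 mM, with medians of -0.065, -0.016, -0.080, -0.079 and 0.042. The share of all probe sets called with these weights is not given, so these counts carry no result about the members either.

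With the replicate block 1 member was called at 2.1 mM and 3 by the F test; the numbers do not pair the arrays. The probe set of largest variance gave 6, 2, 4, 6 and 7 calls at 0.35, 1.4, 2.1, 2.8 and 3.5 mM, 4 and 10 at the steps to 0.35 and 3.5 mM and 18 by the F test. The mean of all probe sets gave 3 at 0.35 mM, 0 at 3.5 mM and 3 and 5 at these steps. Rpl7l1 at 3.5 mM reversed in both, to -0.129 and -0.018. Without probe sets that can read several transcripts (suffixes _x_at and _s_at) 1 and 4 were called at 0.35 and 3.5 mM and 1 and 5 at these steps.

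With each array left out in turn the counts ran from 0 to 2 at 0.35 mM, 0 to 1 at 0.7 mM, 0 to 2 at 1.4 mM, 0 to 5 at 2.1 mM, 1 to 4 at 2.8 mM, 0 to 3 at 3.5 mM, 0 to 1 and 1 to 3 at the steps to 0.35 and 3.5 mM and 2 to 14 by the F test. The medians ran from -0.017 to 0.116, -0.158 to -0.025, -0.041 to 0.083, 0.00080 to 0.122, -0.053 to 0.071, -0.028 to 0.103 and 0.053 to 0.195 from 0.14 to 3.5 mM. Except where an alternative uses fewer arrays or probe sets by construction, the cause was not tested.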
